A study of Drosophila melanogaster with 2 samples.

Results

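The genes described here encode the translation factors, the proteins that help the ribosome to start, extend and finish a polypeptide. They were chosen by name, as the probe sets (groups of short probes for a transcript) that the platform annotation assigns to 1 gene whose current symbol starts with eIF, eEF or eRF. The rule found 51 of the 18952 probe sets on the array, and these measured 47 of the 11983 genes that have a probe set of their own. The current gene table holds 54 symbols of this kind. The other 7 had no probe set of their own and were not analysed here: eIF1A, eIF2alpha, eIF2gamma and eIF4H1 among the initiation factors, and eEF1alpha1, eEF1beta and eEF2 among the elongation factors.

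The series holds 2 Affymetrix Drosophila Genome 2.0 arrays, replicates 1 and 2 of 1 group. S2 is an established line of fly embryo origin with properties of macrophage-like blood cells, and these S2 cells had been soaked for 4 days with dsRNA (double-stranded RNA) against GFP, given the dsRNA again, and harvested after another 4 days. GFP (green fluorescent protein) is a jellyfish protein with no gene in the fly. The labels call the treatment duplicated without saying whether the cultures were separate, so the spread between the arrays may be technical. There was no second condition, so no effect of the dsRNA could be measured and no test between groups was possible. A level below is a deposited linear signal on replicate 1 and on replicate 2.

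Initiation in eukaryotes begins when the eIF4F complex, made of the cap-binding protein eIF4E, the scaffold eIF4G and the RNA helicase eIF4A, prepares the 5′ end of an mRNA. The small ribosomal subunit, carrying eIF3, eIF1, eIF1A, eIF5 and the ternary complex of eIF2, GTP and initiator tRNA, then scans to the start codon. Subunit joining, elongation by the eEF1 and eEF2 factors, and release by eRF1 and eRF3 follow. Several fly factors exist in extra gene copies, and some of the eIF4E and eIF4G copies are known for roles in the male germline.

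A gene was called detected where a probe set of its own lay above a background limit on both arrays. Chemosensory receptor genes of the odorant and gustatory families, which a blood-like line is not expected to use, set this limit: it was the 95th percentile over their 126 probe sets, a signal of 146 on replicate 1 and 136 on replicate 2. Of the 47 translation factor genes 38 were detected (80.9%), against 49.1% of all 11983 genes. By probe sets, 42 of 51 were above the limit (82.4%), against 38.3% of all 18952. The 38 detected genes had a median signal of 4444 on replicate 1 and 4793 on replicate 2. Over all 5886 detected genes the medians were 906 and 909. On both arrays 30 of the 38 had signals above 1000 (78.9%), compared with 44% of all detected genes. The number of detected translation factor genes was also 38 with the limit lowered to the 90th percentile, where 51.6% of all genes passed. It was 37 at the 99th percentile (43.9% of all genes) and 40 with a limit taken from 50 control probe sets (58.2%). It was 38 under the stricter call that needs all of a gene's probe sets above the limit (46.6%), after quantile normalization (49.1%), with replicate 2 alone (50.7%) and with replicate 1 alone (49.7%). Signals of different probe sets depend on their probes as well as on the RNA, so these medians describe the arrays and do not order the transcripts. In a bulk sample, fewer cells with a transcript and less transcript per cell cannot be told apart.

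Marker lists of several cell types, chosen with earlier results of these data known, were counted by the same call. They are no independent check of cell identity. Of 10 hemocyte (blood cell) markers 9 were detected (90%), against 49.1% of all genes. The 10 had summed signals of 35766 and 33084 on replicates 1 and 2, and only NimC1, at 96.6 and 127, was below the limit. For Pxn 1 of 2 probe sets passed. The signals of eater were 233 and 229, below the 99th percentile limit of 278 on replicate 2. Of 11 testis markers 2 were detected, mia and twe, and the 11 summed to 1207 and 1111. Of 5 neuronal markers only elav was detected. None of 5 follicle and egg markers was detected on both arrays.

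**Figure D1:**
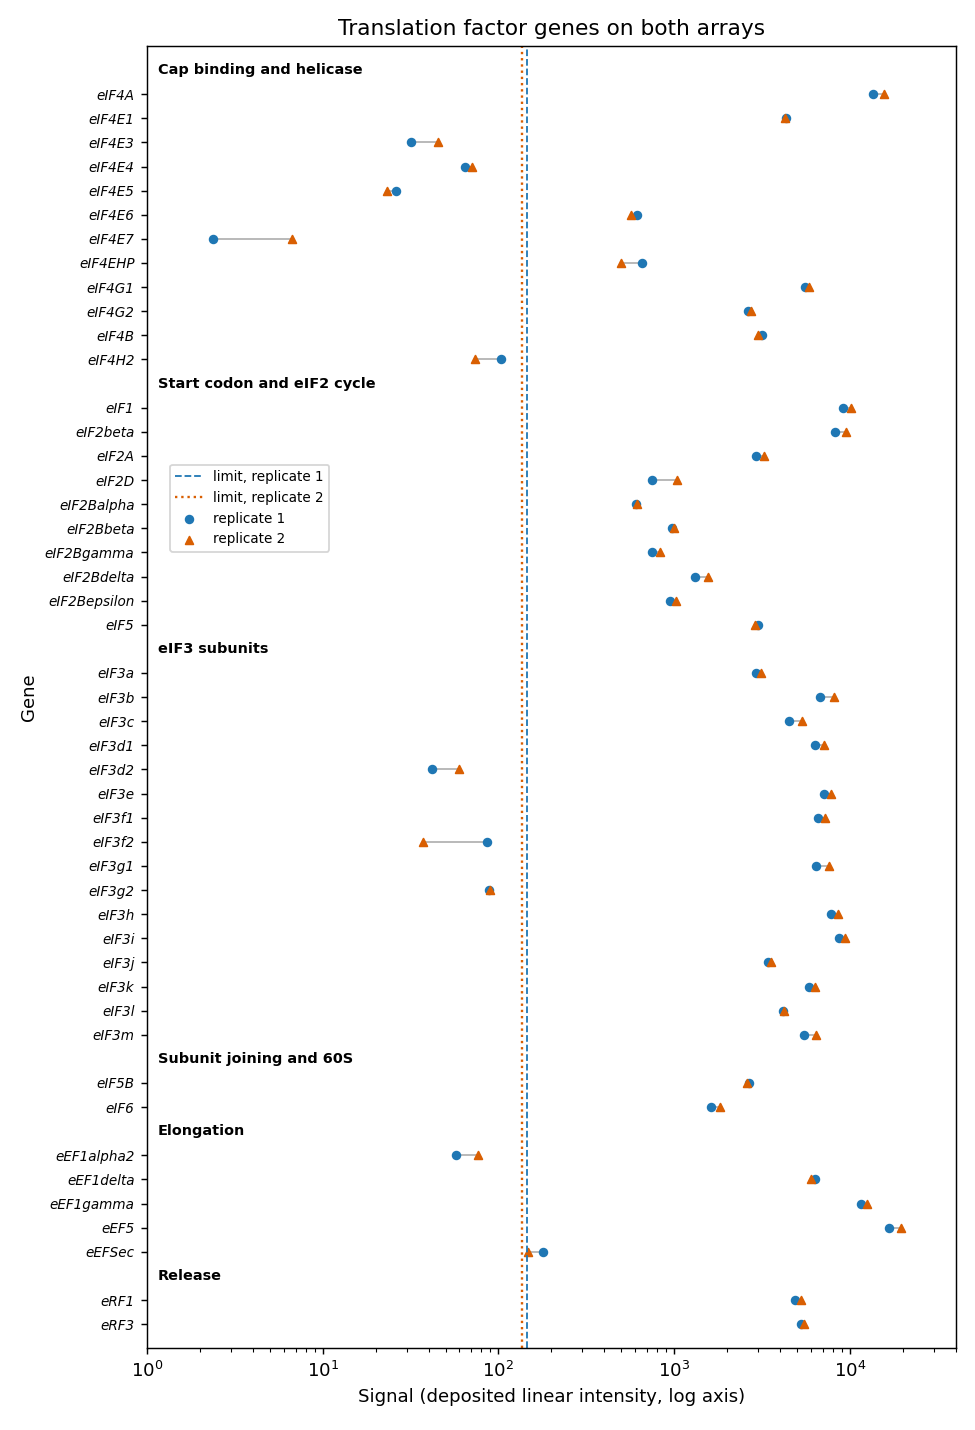
Signal of each of the 47 translation factor genes on replicate 1 (circles) and replicate 2 (triangles), on a log axis, by the role of the factor; for genes with several probe sets the one with the highest mean is drawn. The vertical lines are the background limits of 146 and 136, and 9 genes lie to their left on both arrays.

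Of the cap-binding and helicase group, 7 of 12 measured genes were detected (58.3%), near the 49.1% of all genes. eIF4A, the helicase, had signals of 13494 and 15585. eIF4E1, the main cap-binding protein, had 4348 and 4299. eIF4G1, the scaffold that bridges eIF4E and eIF3, stood at 5555 and 5882. Every subunit type of the eIF4F complex was thus far above the limit. From replicate 1 to replicate 2, eIF4E1 differed by -0.02, eIF4G1 by 0.08 and eIF4A by 0.21 on the log2 scale. eIF4B, a cofactor of the helicase, was measured by 4 probe sets, all above the limit, and the one with the highest mean had 3155 and 3017. The dimmest of the 4 eIF4B probe sets had 214 and 294. The related cofactor gene eIF4H2 was not detected, at 103 and 73.2.

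The array also carries 3 control probe sets along the eIF-4a transcript, which serve as a check of RNA integrity and labelling. The control near the 3′ end had 13098 and 15014, the middle one 12419 and 14491, and the one near the 5′ end 6420 and 7466. The ratio of the 3′ to the 5′ signal was 2.04 on replicate 1 and 2.01 on replicate 2, so the arrays were alike in this measure. All 3 controls were higher on replicate 2, by 0.20, 0.22 and 0.22 on the log2 scale, close to the 0.21 of the gene's own probe set.

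The eIF4E family was divided between detected and undetected genes. Of its 7 members, eIF4E1, eIF4E6 and eIF4EHP were detected and eIF4E3, eIF4E4, eIF4E5 and eIF4E7 were not. The detected share, 42.9%, was near the 49.1% of all genes. eIF4E6 had signals of 618 and 572. eIF4EHP, a cap-binding relative that represses the translation of its mRNAs, had 657 and 501, and its second probe set 350 and 339. Both eIF4EHP probe sets were above the limit on both arrays. eIF4E3, which is known for its part in spermatogenesis, was at 31.6 and 45.2. eIF4E4 was at 64.2 and 70.4, eIF4E5 at 26.1 and 23.2, and eIF4E7 at 2.38 and 6.65. All 4 undetected members lay below the limit on each array. Another 2 probe sets, assigned jointly to eIF4E7 and CG17010 and so not counted among the members, were also below it, at means of 27.9 and 27.8.

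The eIF4G pair did not divide in this way. eIF4G2, a paralogue of the scaffold known for its requirement in male meiosis, was detected at 2623 and 2753, beside the detected eIF4G1. It was well above the limit on both arrays, while 9 of the 11 testis markers were below it.

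All 10 measured genes of start codon selection and the eIF2 cycle were detected (100%), against 49.1% of all genes. eIF1, which guards the choice of the start codon, had 9103 and 10133. eIF2beta, the only subunit of the initiator tRNA carrier eIF2 measured here, had 8265 and 9507. eIF5, the factor that promotes GTP hydrolysis by eIF2, had 3000 and 2885. These signals lay far above the limit on each array. eIF2A had 2911 and 3265, and eIF2D, also called ligatin, had 751 and 1046. Both were counted in this group, although neither encodes a subunit of eIF2.

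The 5 subunits of eIF2B, the exchange factor that recharges eIF2 with GTP, were all measured and all detected, against 49.1% of all genes. The catalytic subunit gene eIF2Bepsilon had 947 and 1030, and its partner eIF2Bgamma 744 and 827. The regulatory subunit genes eIF2Balpha, eIF2Bbeta and eIF2Bdelta had 606 and 617, 978 and 1003, and 1321 and 1563. All 5 subunit signals were above 4 times the limit on each array, and each was somewhat higher on replicate 2.

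The scaffold complex eIF3 was represented by 16 genes, of which 13 were detected (81.2%), against 49.1% of all genes. The detected set held a gene for each lettered subunit a to m. Their signals ran from 2944 to 8736 on replicate 1 and from 3126 to 9444 on replicate 2. eIF3a, the largest subunit, marked the low end at 2944 and 3126, and eIF3i the high end at 8736 and 9444. The core subunit genes eIF3b and eIF3c had 6759 and 8097, and 4540 and 5323. For eIF3e the signals were 7143 and 7838, for eIF3h 7862 and 8592, and for eIF3j 3435 and 3582. Those of eIF3k were 5873 and 6330, of eIF3l 4167 and 4229, and of eIF3m 5524 and 6429. No eIF3 gene had an intermediate signal, since the 3 undetected genes were all under 90 on both arrays.

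Those 3 undetected genes were the extra copies in the eIF3d, eIF3f and eIF3g pairs. For the d subunit, eIF3d2 had 41.7 and 59.6, whereas eIF3d1 had 6380 and 7141. For the f subunit, eIF3f2 had 85.7 and 37.1, and eIF3f1 had 6614 and 7261. The g subunit showed the same division, with 88.4 and 89.1 for eIF3g2, and 6424 and 7632 for eIF3g1. In each pair 1 copy was detected and 1 was not. Whether the probe sets of the undetected copies can register their transcripts was not tested.

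The joining factor eIF5B, a GTPase that brings the ribosomal subunits together, had signals of 2667 and 2606. eIF6, which binds the large subunit and keeps it from joining too early, had 1623 and 1817. Both were detected.

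Of 5 measured elongation factor genes 4 were detected (80%), against 49.1% of all genes. eEF5, the hypusine-containing factor formerly called eIF5A, had 16718 and 19693. The exchange factor subunit genes eEF1gamma and eEF1delta had 11663 and 12620, and 6321 and 6015. The signal of eEFSec, the factor dedicated to selenocysteine, was the closest of the detected members to the limit, at 179 and 148 against limits of 146 and 136. With the limit at the 99th percentile of the receptor probe sets eEFSec was no longer detected. eEF1alpha2, the copy of eEF1alpha that had a probe set of its own, was not detected, at 57.1 and 76.9. The other copy, eEF1alpha1, was not analysed here, so nothing is shown about the level of eEF1alpha as a whole.

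Both release factor genes were detected, against 49.1% of all genes. eRF1, which reads the stop codons, had 4850 and 5287. eRF3, its GTPase partner, had 5245 and 5468.

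**Figure D2:**
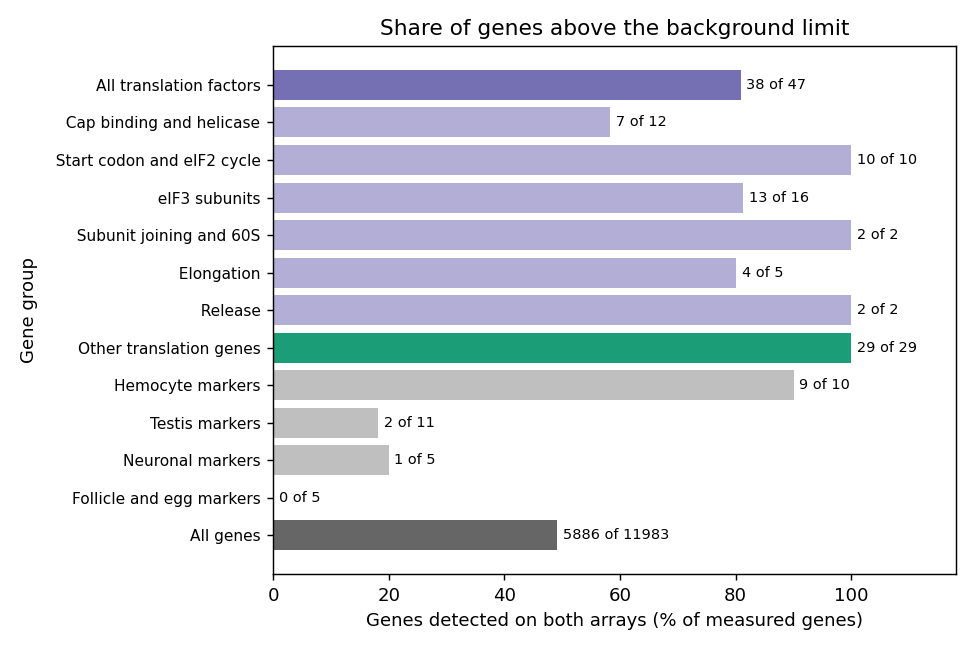
Share of measured genes detected on both arrays, in percent, for the translation factors as a whole and by role, other translation genes, marker lists and all genes; the number detected of the number measured stands beside each bar. The translation factors reached 38 of 47, the 29 other translation genes all passed, and 5886 of all 11983 genes passed.

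Other genes that act on translation were drawn from a list of 32 names, chosen with earlier results of these data known. Of these, 29 had a probe set of their own and 29 were detected (100%), against 49.1% of all genes. The names without a probe set of their own were Thor (the eIF4E-binding protein), cup and pix. Among regulators of the cap complex, pAbp, the poly(A)-binding protein that contacts eIF4G, had 11881 and 13603. Its inhibitor Paip2 had 3692 and 3153, the eIF4E-binding gene 4E-T 1323 and 1320, and the eIF4E kinase gene Lk6 5381 and 5678. NAT1, a relative of eIF4G, had 5717 and 6265, and the DEAD-box helicase gene bel had 2339 and 2422. All of these were above 1000 on both arrays.

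The kinases that phosphorylate eIF2alpha under stress were both detected, Gcn2 at 710 and 745 and PEK at 751 and 766. Their counterpart PPP1R15, a phosphatase subunit that reverses the mark, had 2598 and 2573, and crc, the fly ATF4 transcription factor whose translation responds to it, had 9267 and 10330. Growth signalling was represented by mTor at 550 and 558 and by S6k at 6477 and 6579. All 6 of these genes were above the limit on both arrays.

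Genes that modify or assist single factors were detected as well. The hypusine pathway genes that act on eEF5, Dhps (listed as CG8005) and nero, had 787 and 764, and 1183 and 1145. The diphthamide pathway, which modifies eEF2, was represented by Dph1, Dph2, Dph4 and Dph5, with signals between 582 and 1797 on replicate 1 and between 623 and 1725 on replicate 2. DENR and MCTS1, partners in reinitiation, had 1209 and 1127, and 811 and 680. The ribosome rescue genes pelo and HBS1, relatives of eRF1 and eRF3, had 1155 and 1559, and 881 and 1258.

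Mitochondria use a separate set of factors of bacterial type, and 7 of these genes were measured and detected. The elongation factor gene mEFTu1 had 2394 and 2477, mEFTs 547 and 549, and mEFG1 437 and 493. The release factor gene mRF1 had 560 and 574. The initiation factor genes mIF2 and mIF3 and the recycling factor gene mRRF1 were the dimmest, between 207 and 221 on replicate 1 and between 210 and 231 on replicate 2. Those 3 did not pass the 99th percentile limit, and 1 of the 2 mIF2 probe sets was below the main limit.

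The remaining comparison was between the duplicate arrays, as log2 of the signal on replicate 2 minus that on replicate 1. It carries no test, because each replicate is 1 array. Of the 38 detected translation factor genes 30 were higher on replicate 2 (78.9%), against 49.5% of all 5886 detected genes. After median scaling 26 of the 38 were higher, against 37.1% of all detected genes, and after quantile normalization 28, against 47.4%. The median difference was 0.12 with an SD over genes of 0.15, and over all detected genes it was -0.0022 with an SD of 0.22. None of the 38 differed by over 2-fold, which 0.153% of all detected genes did. Of the 29 other translation genes 18 were higher on replicate 2, at a median of 0.03, while 10 were higher after median scaling (median -0.03) and 17 after quantile normalization (median 0.01). Of the 9 detected hemocyte markers 1 was higher, at a median of -0.10, and none was higher after median scaling or quantile normalization. The part of the markers' difference in that of the translation factors was not tested.

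**Figure D3:**
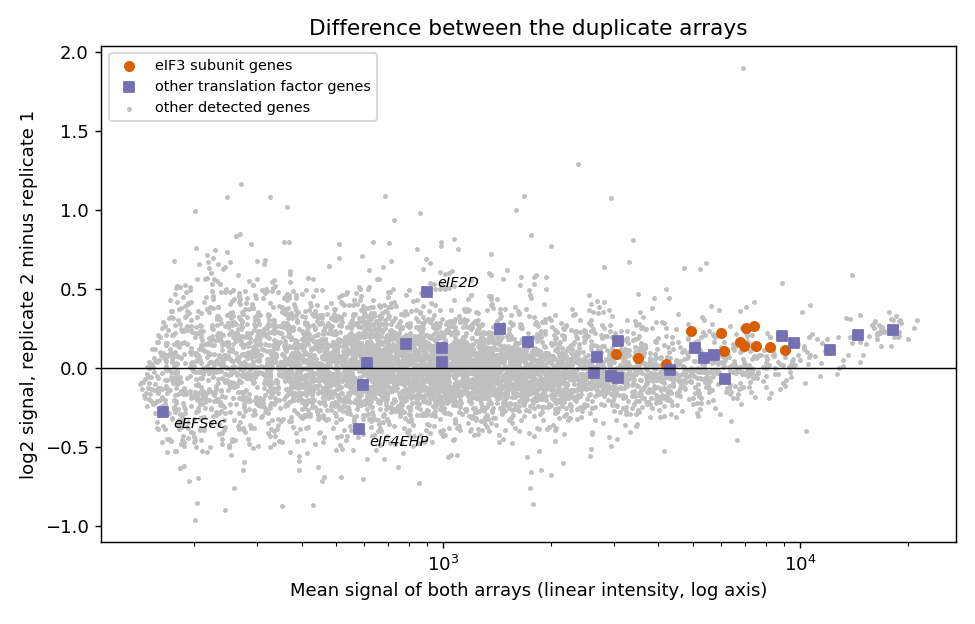
Log2 signal on replicate 2 minus replicate 1 against the mean signal (log axis) for the 13 detected eIF3 genes (circles), the 25 other detected translation factor genes (squares) and all other detected genes (grey). All 13 eIF3 genes lie above 0 (12 of 13 after median scaling), at mean signals from 3035 to 9090. Of all detected genes, 984 of 2227 lie above 0 between 1000 and 4000, and 192 of 410 between 4000 and 10000. At 10000 or more, where no eIF3 gene lies, 70 of 75 do.

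The shift was uneven over the roles, which hold from 2 to 13 detected genes each. Of all detected genes 49.5% were higher on replicate 2 as deposited. All 13 detected eIF3 genes were higher on replicate 2, by 0.02 to 0.26 with a median of 0.13. After median scaling 12 of the 13 eIF3 genes were higher, and after quantile normalization 13. Of the 10 start codon and eIF2 cycle genes 9 were higher (median 0.15) and 7 after median scaling, and eIF5 alone was lower as deposited, at -0.06. In the cap-binding group the median was -0.02 and 3 of 7 were higher. With the mean over each gene's probe sets 4 of these 7 were higher (median 0.04), and after quantile normalization 3 (median 0). All 3 detected eIF4E family genes were lower, although after quantile normalization eIF4E1 was equal on both arrays. Of the 4 detected elongation genes 2 were higher, with a median of 0.02, but after quantile normalization none of the 4 was higher and their median was -0.06. Among the 2 joining genes 1 was higher (median 0.07). Both release genes were higher (median 0.09), but after median scaling only 1 of the 2 was.

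The difference between the arrays was also set beside signal height. Over all detected genes, the median was near 0 in every class but that of the highest signals. Of the 75 detected genes with a mean signal of 10000 or more, 70 (93.3%) had the higher signal on replicate 2 (median 0.20), and the 3 translation factor genes among them, eIF4A, eEF1gamma and eEF5, had a median of 0.21. Between 4000 and 10000, 16 of 18 translation factor genes were higher with a median of 0.13, against 192 of 410 genes (46.8%) with a median of -0.01. Between 1000 and 4000, 6 of 9 were higher (median 0.07), against 44.2% of all genes (median -0.02). Below 1000, 5 of 8 were higher (median 0.03), against 52.6% (median 0.01). The 18 hybridisation control probe sets had a median difference of 0.30, and 18 of 18 were above 0. They measure bacterial and phage transcripts added to the hybridisation mix, and several probe sets can share a transcript. The part of signal height or of hybridisation in the difference of the translation factors was not tested.

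The 5 detected members with the largest differences were all under 1.4-fold. eIF2D was 1.39-fold higher on replicate 2. eIF4EHP was lower there by -0.39 on the log2 scale, but its second probe set differed by only -0.04. eEFSec, close to the limit, differed by -0.28. The eIF3 genes eIF3b and eIF3g1 differed by 0.26 and 0.25. For eIF4B, the 3 brighter probe sets differed by -0.06, -0.07 and -0.14, and the dimmest by 0.46. That dimmest eIF4B probe set, near the limit at 214 and 294, was the only one of the 4 above 0.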

How the data were processed

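RNA of S2 cells was hybridised to 2 Affymetrix arrays. Per the labels' protocols, an oligo-dT primer started the cDNA, which was amplified with biotinylated nucleotides, so probes near 3′ ends are favoured. Per the series' design text, the data came from GeneChip Operating Software 1.2. Its summarising algorithm, scaling and filters are not given in these sources. The values the authors deposited are linear signal intensities, 1 for each probe set on each array, with medians of 70.8 and 73.8. No normalization was added. Precision rests on the number of arrays, which is 2.

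Probe sets were named from the platform annotation: 13647 had 1 gene, 402 several and 4903 none. Symbols were updated through gene identifiers in a RefSeq table (assembly release 6), which held 11894 of the 11983 genes. A gene's level is that of its probe set with the highest mean. Log2 differences used a floor of 1 on the signal. Analyses used Python 3.11.15 and pandas 2.3.3, and the calls and differences were tested on simulated data. The text names every member, every measured gene of the list of other translation genes and the 5 detected members with the largest differences. Members and lists were chosen with earlier results of these data known. No set test was run, because genes are not replicates. Protein and promoter sequences were not used here.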

Additional observations from a re-analysis of the deposited data

How the results depend on the processing

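The number of translation factor genes detected was 38 of 47 with the 90th percentile limit, with quantile normalization, with every probe set of a gene required, and with prefixes in any letter case. It was 37 with the 99th percentile limit, where eEFSec was lost, and 40 with a limit from 50 control probe sets, where eIF3g2 and eIF4H2 were gained. Without replicate 1 and without replicate 2 it was 38 each. The other translation genes gave 26 of 29 with the 99th percentile limit (43.9% of all genes) and 28 with every probe set required (46.6%). The median difference of the detected translation factors was 0.06 after median scaling and 0.07 after quantile normalization, where the medians of all detected genes were -0.06 and -0.01. In classes of signal height, a setting chosen after seeing the data, it ran from 0.03 to 0.21. No paired analysis was possible because the series holds 1 group. The planned search of promoters for TCTTT was not run, because no promoter sequence was used here.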
